A study of Mus musculus with 43 samples.

Results

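The genes described here encode the TAM receptors and the partners with which glia take up dying cells, synapses and myelin debris. They are the receptor tyrosine kinases Tyro3, Axl and Mertk, their ligands Gas6 and Pros1, the engulfment receptor Megf10 with the adaptor Gulp1, the bridging protein Mfge8, the endocytic receptor Lrp1 and the Rac activator Elmo1. The 10 genes were chosen by name, with earlier results of these data known. They were taken out of 55416 genes counted in each of 43 libraries, and each was found by its symbol as 1 row. As background, phosphatidylserine on the surface of a dying cell is the signal that this machinery reads. Gas6 and protein S, the product of Pros1, bind it after a vitamin K dependent carboxylation and bridge it to a TAM receptor, while Mfge8 bridges it to integrins. Megf10 signals through the adaptor Gulp1, which also binds Lrp1, and Elmo1 acts with Dock1 to activate Rac and move the membrane around the cargo. Astrocytes are known to use Mertk and Megf10 in the removal of synapses, and microglia use Mertk and Axl.

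The libraries were made from the cerebral cortex of 3-month-old mice of 1 colony, in which the Rag2-/- line B6.Cg-Rag2tm1.1Cgn had been crossed to C57BL/6J. Rag2-/- mice lack mature lymphocytes in the whole body, so the deletion is not confined to a brain cell type. Each Rag2-/- mouse was paired with a littermate control, which was Rag2 +/- in pairs 1, 2, 3 and 5 and Rag2 +/+ in pairs 4 and 6, and the 6 pairs gave 12 mice. Cells were taken from 1 suspension per mouse by immunopanning, in which cells bind to dishes coated with an antibody, with anti-CD45 for microglia first, then anti-PDGFRα for oligodendrocyte precursor cells (OPCs), GalC hybridoma antibody for oligodendrocytes and anti-HepaCAM for astrocytes. Astrocytes and microglia came from 6 control and 6 Rag2-/- mice each, OPCs from 6 control and 5 Rag2-/- mice (no Rag2-/- library of pair 5), and oligodendrocytes from 4 and 4 mice (pairs 1, 3, 5 and 6). Both mice of pairs 1, 3 and 4 were male and both of pairs 2 and 5 were female, whereas in pair 6 the Rag2-/- mouse was female and the control male. The libraries of a given cell type shared 1 sequencing lane, so a difference between cell types cannot be told apart from one between lanes.

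The deposited values were read pairs counted per gene, and the total on genes was 6499417 to 23118497 per library, with a median of 10447042. Rag2 had counts in 3 control libraries, at most 4, and in no Rag2-/- library. Iftap, a gene that overlaps Rag2, had 14 to 208 counts in controls and 0 to 2 in Rag2-/- libraries, so the genotype labels held in all 43. Each cell type carried its own markers. The 6 oligodendrocyte markers summed to 26749 to 35646 normalized CPM in oligodendrocytes, the 5 OPC markers to 2396 to 3428 in OPCs, the 6 astrocyte markers to 5936 to 7566 in astrocytes and the 6 microglial markers to 6505 to 8141 in microglia. The panels also showed RNA of other cells. The oligodendrocyte panel stood at 3632 to 6342 in astrocyte libraries, the astrocyte panel at 502 to 1730 in OPC libraries and at 277 to 812 in oligodendrocyte libraries, and a 6-gene neuronal panel at 551 to 2901 in oligodendrocyte libraries. Mitochondrially encoded genes held 45.8% to 60.1% of the counts of oligodendrocytes and 6.75% to 11.7% of those of microglia. These libraries are bulk samples, in which fewer cells of a type and less RNA per cell cannot be told apart.

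The promoters of the 3 TAM receptors are shown because these closely related kinases had a different order of levels across the glia, which follows below. Each line gives 300 bases from 250 before to 50 after the annotated start, 5′ to 3′ on the strand of the gene, from RefSeq on build GRCm38.p6, a build older than that of the counts. Capitals mark matches, on either strand, to the GC box (GGGCGG) and to a core of the PU.1 motif (GAGGAA), a motif of the myeloid factor PU.1. The windows are Mertk at chr2:128698665-128698964 (plus strand), Axl at chr7:25788684-25788983 (minus strand) and Tyro3 at chr2:119799264-119799563 (plus strand).
Mertk: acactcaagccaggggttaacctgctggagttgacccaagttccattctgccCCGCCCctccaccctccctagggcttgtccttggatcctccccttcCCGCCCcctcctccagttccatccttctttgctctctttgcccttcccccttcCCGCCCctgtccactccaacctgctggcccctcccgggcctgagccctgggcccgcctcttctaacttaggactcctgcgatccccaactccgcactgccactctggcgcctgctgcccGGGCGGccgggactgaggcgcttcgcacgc
Axl: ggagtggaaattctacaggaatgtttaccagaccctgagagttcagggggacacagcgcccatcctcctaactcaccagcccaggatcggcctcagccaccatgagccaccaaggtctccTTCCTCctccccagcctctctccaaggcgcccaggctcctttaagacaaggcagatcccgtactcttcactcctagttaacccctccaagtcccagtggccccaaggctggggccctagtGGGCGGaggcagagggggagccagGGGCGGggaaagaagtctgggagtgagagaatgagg
Tyro3: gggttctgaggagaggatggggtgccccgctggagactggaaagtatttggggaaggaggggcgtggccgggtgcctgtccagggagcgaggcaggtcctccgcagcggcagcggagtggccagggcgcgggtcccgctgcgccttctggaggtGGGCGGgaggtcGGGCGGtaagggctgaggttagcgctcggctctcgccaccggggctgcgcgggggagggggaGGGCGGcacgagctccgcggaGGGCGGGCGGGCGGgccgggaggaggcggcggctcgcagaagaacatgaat
The Tyro3 window was the richest of the 3 in G and C, at 73.3%, against 66.0% for Mertk and 60.3% for Axl. It held 6 GC boxes, of which 3 overlapped in 1 run, while Mertk held 4 and Axl 2. A GC box was found in 35.7% of 32851 promoter windows of the same length. The PU.1 core was found once, in Axl, and in 28.3% of all windows, and a short motif of the NFI factors (TTGGCA) was found in none of the 3 and in 14.1% of all windows. These are matches of letters and not binding sites. A window was available for 9 of the 10 genes.

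Each gene had its own order of levels across the 4 cell types. Levels are given as normalized CPM, counts scaled to library size with TMM factors over all 43 libraries, as mean ± SD over the libraries of both genotypes, and neighbours in the order were compared by quasi-likelihood tests of edgeR, with p-values adjusted by Benjamini-Hochberg over all 21368 genes tested. A gene is said to be called when its adjusted p was under 0.05. All 10 genes were called for a difference among cell types, as were 86.5% of all genes, so a difference as such did not set them apart. Of the 30 comparisons between neighbours in the order, 26 were called, and in 16 of the 30 the ranges of single libraries overlapped. The order came from the same levels, and no share over all genes was computed for such neighbours or ranges. These counts therefore describe the 10 genes and do not set them apart.

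Mertk, the TAM receptor most tied to the uptake of dying cells, is at chr2:128540729-128645080 of GRCm39, 27.1 Mb from Rag2. Its level was 420 ± 78.0 (SD, n = 12) in astrocytes and 342 ± 51.1 (n = 12) in microglia, and these differed by 0.29 ± 0.17 (SE) on the log2 scale, which was not called (adjusted p = 0.113). The astrocyte libraries ranged from 307 to 600 and the microglial libraries from 242 to 421. OPCs stood at 77.0 ± 36.7 (n = 11), 4.52-fold under microglia (adjusted p = 4.7e-14), and oligodendrocytes at 39.1 ± 20.02 (n = 8), 2.00-fold under OPCs (adjusted p = 8.0e-05). Astrocytes and microglia were thus both above every OPC and oligodendrocyte library, of which the highest was an OPC library at 181. Without the Rag2-/- mouse of pair 1 the astrocyte to microglia difference was called (log2 0.34, adjusted p = 0.0314), and so it was without a filter on low counts (0.32, adjusted p = 0.0243).

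Axl, a TAM receptor that binds Gas6 and is known as an inflammation-induced receptor of myeloid cells, is at chr7:25456535-25488329. In these libraries it was an astrocyte transcript above all. It reached 132 ± 12.5 in astrocytes, with a range of 109 to 150, and 41.9 ± 7.48 in OPCs, with a range of 29.6 to 55.6, so the ranges did not meet (3.12-fold, adjusted p = 4.2e-08). Microglia stood at 26.1 ± 5.70, below OPCs by 1.62-fold (adjusted p = 0.0038), and oligodendrocytes at 16.5 ± 12.6 (adjusted p = 0.0153 against microglia). Neither of these last 2 differences was called in control libraries alone (adjusted p = 0.240 and 0.244). Among oligodendrocyte libraries Axl ran from 2.33 to 43.8, and the library at 43.8 was the control of pair 6, which also had the highest astrocyte panel (812) and neuronal panel (2901) of the oligodendrocytes. The part of those cells in the Axl level was not tested.

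Tyro3, the TAM receptor known for its expression in the nervous system, is at chr2:119628214-119648738, 18.2 Mb from Rag2, and had an order of its own. It was highest in oligodendrocytes, at 77.2 ± 18.8, with libraries from 54.0 to 100.3, and was 3.35-fold lower in OPCs, at 22.9 ± 4.88 (adjusted p = 1.7e-08). OPCs and astrocytes, the latter at 22.3 ± 6.27, differed by a log2 value of 0.05, with a 95% interval of -0.35 to 0.45 (adjusted p = 0.875). The sign of that difference turned under other scalings. Taken singly, the 6 oligodendrocyte markers had means in astrocyte libraries of 13.2% to 33.7% of their oligodendrocyte means, with a median of 21.1%. Tyro3 stood at 28.9% there, within that range and above that median. In OPCs Tyro3 stood at 29.6% and the single markers at 1.60% to 9.51%. The part of oligodendrocyte RNA in these values was not tested. Microglia had 1.90 ± 1.05, from 5 to 45 counts a library, 12.0-fold under astrocytes (adjusted p = 4.8e-18).

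**Figure D1:**
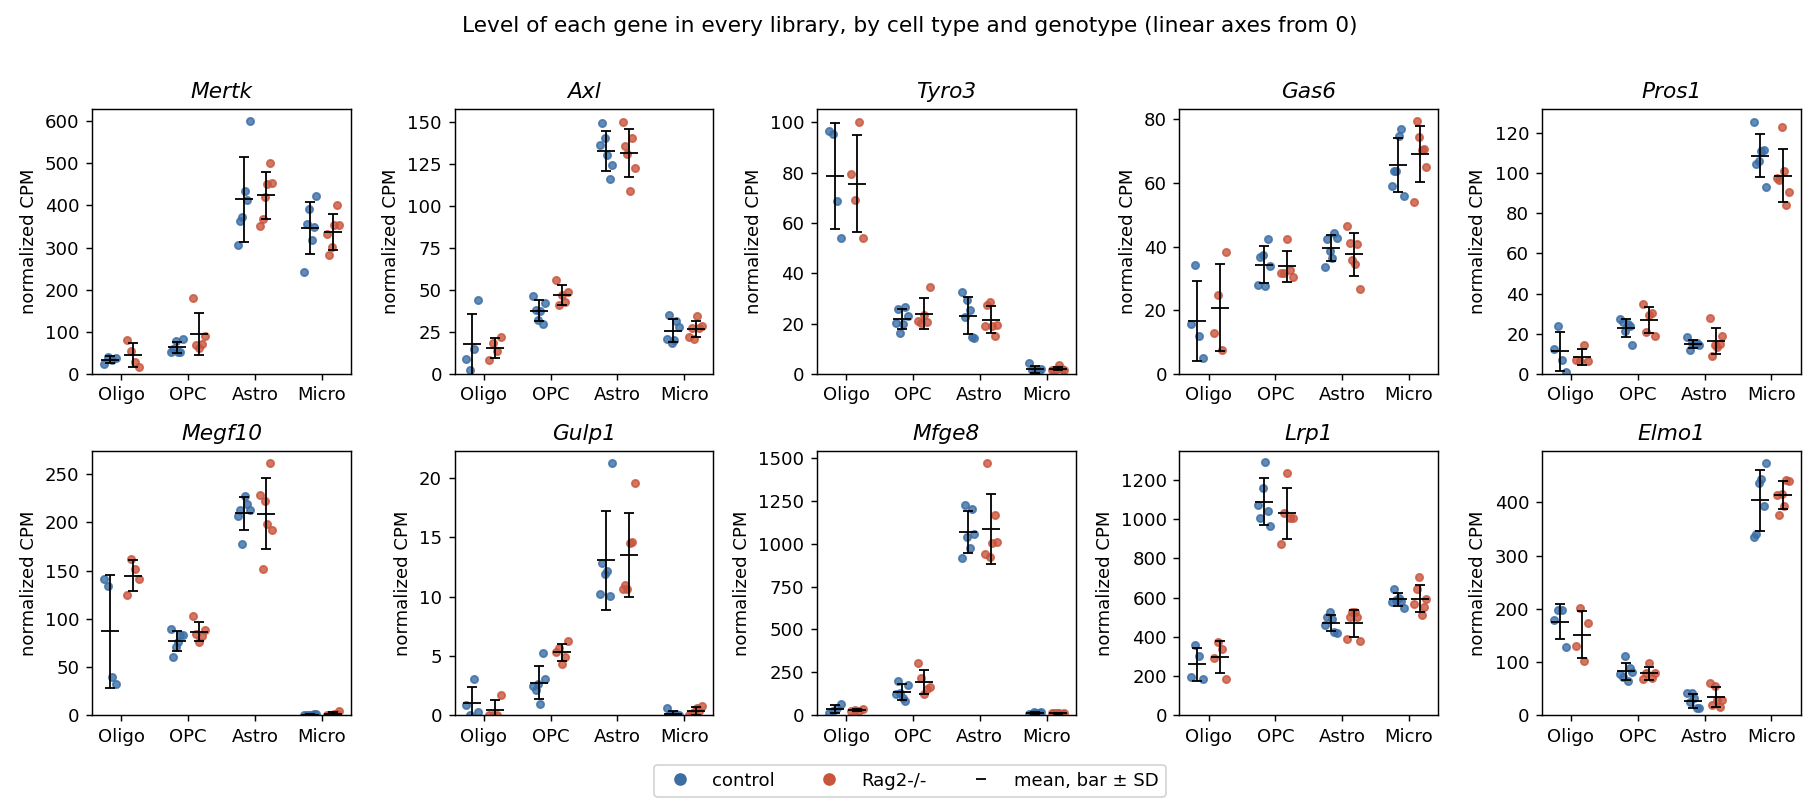
Normalized CPM of each of the 10 genes (vertical axes, linear from 0) in every library, by cell type (horizontal axis) and genotype (blue for control, red for Rag2-/-), with mean and SD. Axl, Megf10, Gulp1 and Mfge8 were highest in astrocytes, Mertk in astrocytes and microglia, which were not called apart, Tyro3 in oligodendrocytes, Gas6, Pros1 and Elmo1 in microglia and Lrp1 in OPCs, and blue and red points overlapped in each of the 40 groups of libraries.

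The 2 ligands were both highest in microglia. Gas6, which binds all 3 TAM receptors, is at chr8:13515371-13544824 and reached 67.4 ± 8.38 in microglia, from 54.0 to 79.5, which lay above every other library. Astrocytes (38.6 ± 5.48) and OPCs (34.1 ± 5.14) were not called apart (log2 0.18, 95% interval -0.21 to 0.56, adjusted p = 0.486), and oligodendrocytes had 18.8 ± 12.4, 1.82-fold under OPCs (adjusted p = 0.0015). Pros1, which encodes protein S, the ligand of Tyro3 and Mertk and an anticoagulant, is at chr16:62674275-62749710 and was steeper. It stood at 103.6 ± 12.6 in microglia, with no library under 84.0, and at 24.8 ± 5.67 in OPCs, a 4.20-fold difference (adjusted p = 7.3e-11). Astrocytes followed at 15.6 ± 4.59 (adjusted p = 0.0119 against OPCs) and oligodendrocytes at 9.78 ± 6.99 (adjusted p = 0.0192 against astrocytes). Those last 2 steps were small against the spread. The OPC to astrocyte step was lost without any 1 of 5 mice (controls of pairs 2 and 4, Rag2-/- mice of pairs 2, 3 and 4; adjusted p up to 0.0755) and in controls alone (0.215). The astrocyte to oligodendrocyte step was lost without the Rag2-/- mouse of pair 6 (0.0602) and in controls alone (0.401). In oligodendrocyte libraries Pros1 stood at 9.43% of its microglial level. The single microglial markers stood there at 5.52% to 10.7%, with a median of 6.40%. The part of microglial RNA in that Pros1 value was not tested. The CD45 dishes can also bind macrophages, and 6 border macrophage markers summed to 342 to 824 in microglial libraries. Their part in Gas6 and Pros1 was not tested.

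Megf10, the mammalian relative of the engulfment receptors CED-1 of the worm and Draper of the fly, lies on chromosome 18 and was absent or nearly so from microglia. It reached 209 ± 27.6 in astrocytes, with libraries from 152 to 261, and 116 ± 50.4 in oligodendrocytes, a 1.85-fold difference (adjusted p = 0.0051). OPCs had 81.6 ± 10.9 and were not called apart from oligodendrocytes (log2 0.46, 95% interval -0.07 to 0.99, adjusted p = 0.159). Microglia had 1.12 ± 1.31, from 2 to 54 counts a library, 78.3-fold under OPCs (adjusted p = 3.7e-21). That was 0.534% of the astrocyte level, and the single astrocyte markers stood at 0.481% to 3.67% in the same libraries. In oligodendrocytes Megf10 stood at 55.4% of the astrocyte level and the single astrocyte markers at 3.75% to 8.03%. The part of astrocyte RNA in these Megf10 values was not tested. The oligodendrocyte libraries fell apart into 6 from 124 to 162 and 2 control libraries, of pairs 5 and 6, at 40.2 and 32.8.

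Gulp1, the adaptor that binds Megf10 and Lrp1, is at chr1:44590595-44836044 and was rare outside astrocytes and OPCs. It stood at 13.3 ± 3.67 in astrocytes, from 10.0 to 21.2, and at 3.901 ± 1.73 in OPCs, from 0.991 to 6.25, so the ranges did not meet (3.50-fold, adjusted p = 0.0012). Oligodendrocytes had 0.736 ± 1.10, with 4 of 8 libraries at 0 counts and none over 16, and microglia 0.236 ± 0.300, with 5 of 12 at 0 and none over 9. The difference between these last types was called (adjusted p = 0.0328), but it turned in direction without the Rag2-/- mouse of pair 6 (log2 -0.69, adjusted p = 0.443), and it was not called without the controls of pairs 2, 4 or 5 or the Rag2-/- mouse of pair 2 (adjusted p = 0.0605 to 0.208) or without TMM factors (0.389). The fall from OPCs to oligodendrocytes (adjusted p = 3.3e-04) was not called in controls alone (0.149). Gulp1 in oligodendrocytes was 5.55% of its astrocyte level and in microglia 1.78%. The single astrocyte markers stood there at 3.75% to 8.03% and at 0.481% to 3.67%. In OPCs Gulp1 stood at 29.4% and Megf10 at 38.99% of their astrocyte levels, and the single astrocyte markers at 8.35% to 15.5%. The part of astrocyte RNA in these Gulp1 and Megf10 values was not tested.

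Mfge8, known as lactadherin or milk fat globule EGF factor 8, is at chr7:78783515-78798825 and fell in steps from astrocytes to microglia. It reached 1077 ± 162 in astrocytes, from 915 to 1469, 6.62-fold above OPCs at 162 ± 61.7 (adjusted p = 1.5e-15). OPCs were 4.74-fold above oligodendrocytes, at 34.4 ± 15.4 (adjusted p = 1.6e-11), and these were 2.62-fold above microglia, at 13.1 ± 3.84 (adjusted p = 4.7e-08), a step that was not called without TMM factors (log2 0.43, adjusted p = 0.0545). Outside astrocytes these levels were close to those of astrocyte markers. Mfge8 stood at 15.03% of its astrocyte level in OPCs, 3.19% in oligodendrocytes and 1.21% in microglia. The single markers of the astrocyte panel stood at 8.35% to 15.5%, 3.75% to 8.03% and 0.481% to 3.67%. The part of astrocyte RNA in these values was not tested.

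Lrp1, a large receptor that takes up apolipoprotein E, protease complexes and myelin debris, is at chr10:127374012-127457017 and was strong in all 4 types. OPCs had 1062 ± 122, from 873 to 1293, above every other library, and microglia 593 ± 51.9, a 1.78-fold difference (adjusted p = 2.1e-09). Astrocytes had 470 ± 54.3 (adjusted p = 0.0030 against microglia) and oligodendrocytes 279 ± 79.1 (1.69-fold lower, adjusted p = 5.0e-07). The largest step between neighbours was thus 1.78-fold, the smallest such largest step among the 10 genes.

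Elmo1, the partner of Dock1 in Rac activation, is at chr13:20274428-20792523 and was highest in microglia, at 409 ± 42.7, from 336 to 474. Oligodendrocytes followed at 164 ± 38.3 (2.53-fold lower, adjusted p = 1.1e-07), then OPCs at 81.2 ± 13.8 (2.01-fold, adjusted p = 3.5e-05) and astrocytes at 31.3 ± 15.8 (2.66-fold, adjusted p = 9.3e-09). The step from oligodendrocytes to OPCs depended on the scaling. Without TMM factors, which moved the median of all genes by 1.01 for OPCs over oligodendrocytes, it was -0.026 on the log2 scale (adjusted p = 0.916). Elmo1 had microglia first and astrocytes last, and Mfge8 the reverse. In oligodendrocytes Elmo1 stood at 40.0% of its microglial level, and the single microglial markers stood at 5.52% to 10.7%. The part of microglial RNA in that Elmo1 value was not tested. Of the exonic bases of Mfge8, Lrp1, Elmo1, Mertk, Gas6 and Pros1, 8.82%, 6.2%, 4.47%, 3.02%, 2.80% and 0.506% overlapped another gene in GENCODE M39. The authors counted with an Ensembl annotation, and whether it holds those genes was not checked. Reads there cannot be taken as assigned with certainty. Axl, Tyro3, Megf10 and Gulp1 had no such bases in GENCODE M39.

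Levels of different genes can be compared only per length, here as normalized CPM per kilobase of annotated exon. On that scale Mfge8 was the strongest of the 10 in astrocytes, at 226 ± 34.0, followed by Mertk at 87.3 ± 16.2. The leading genes were Mertk in microglia (71.0 ± 10.6) and Lrp1 in OPCs (51.8 ± 5.97). These ranks depend on the lengths, which took in the exonic bases of each gene in GENCODE M39, whereas the authors counted with an Ensembl annotation. Microglial Elmo1 exceeded Mertk in normalized CPM, at 409 against 342, but stood below it per kilobase, at 29.1. Which isoforms were expressed was not tested, so the order of genes per kilobase holds only for these lengths. In oligodendrocytes no gene stood out on this scale, with Lrp1 at 13.6 ± 3.86, Elmo1 at 11.7 ± 2.73, Megf10 at 11.6 ± 5.04 and Tyro3 at 11.6 ± 2.81, which differed by less than their spread over libraries. Among the TAM receptors of a cell type, Mertk had the highest level per kilobase in astrocytes, microglia and OPCs, with Axl next at 14.4, 2.84 and 4.56, and Tyro3 in oligodendrocytes, where Mertk had 8.14. Pros1 (16.4 ± 1.99) exceeded Gas6 (12.3 ± 1.52) in microglia and Gas6 exceeded Pros1 in astrocytes, at 7.02 against 2.48. Gulp1 was the lowest of the 10 in each of the 4 cell types, from 1.65 in astrocytes to 0.0294.

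**Figure D2:**
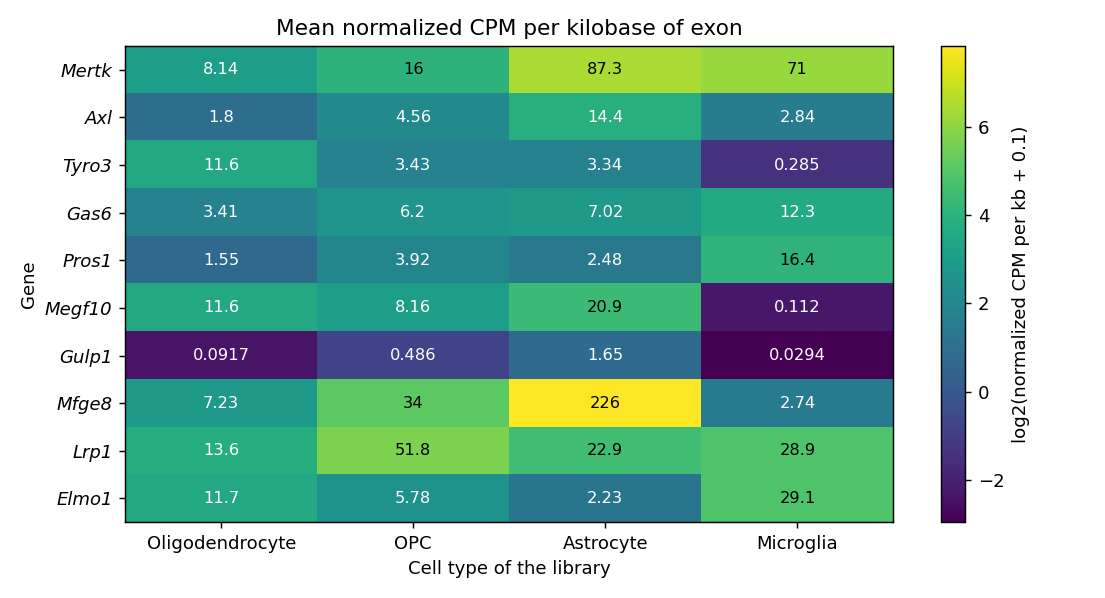
Mean normalized CPM per kilobase of exon for each gene (rows) in each cell type (columns), printed in the cell, with colour on a log2 scale after adding 0.1. Mfge8 in astrocytes (226) is the highest of the 40 values and Gulp1 in microglia (0.0294) the lowest.

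Against the mean of the other 3 cell types on the log2 scale, astrocytes had 6 of the 10 genes higher and 3 lower, where 27.8% of all genes were called higher and 27% lower. The 6 were Mfge8 (log2 4.69), Gulp1 (4.14), Megf10 (3.29), Axl (2.33), Mertk (2.08) and Tyro3 (0.58), and the 3 were Elmo1, Pros1 and Lrp1. Microglia had 5 higher, namely Pros1 (2.74), Elmo1 (2.48), Mertk (1.69), Gas6 (1.21) and Lrp1 (0.20), and 5 lower, of which Megf10 had the lowest value (-6.89), against 36.5% and 36.8% of all genes. OPCs had 5 higher, from Gulp1 (1.73) and Megf10 (1.49) to Tyro3 (0.64), and 2 lower, Mertk and Elmo1, against 29.8% and 14.9%. Oligodendrocytes had 3 higher, Tyro3 (2.97), Megf10 (2.11) and Elmo1 (0.70), and 7 lower, against 24.7% and 25.3%. A gene called higher was not always above each other type, since a type with few reads lowers a mean of log2 values. Megf10 was called higher in OPCs (81.6 normalized CPM) and oligodendrocytes (116), both below astrocytes (209), with microglia at 1.12. Tyro3 was called higher in astrocytes (22.3) and OPCs (22.9), both below oligodendrocytes (77.2), with microglia at 1.90. The medians of the 10 log2 values were 1.33 in astrocytes, -0.30 in microglia, 0.39 in OPCs and -1.47 in oligodendrocytes, and those of all genes -0.06, -0.07, 0.16 and -0.14. In both directions together 54.8% of all genes were called for astrocytes, 73.3% for microglia, 44.7% for OPCs and 50.1% for oligodendrocytes. Over all 6 pairs of cell types the 10 genes gave 60 comparisons and 56 calls, where the share of all genes called was 40.7% for OPCs against oligodendrocytes, 49.7% for astrocytes and 68.0% for microglia against oligodendrocytes, 42.6% for astrocytes and 69.5% for microglia against OPCs, and 70.0% for microglia against astrocytes.

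A further 75 genes of the engulfment machinery, in 6 lists, gave the setting of these 10. In microglia, 13 of 17 tested engulfment receptors other than those above were higher than the mean of the other types and 2 lower, and so were 12 of 16 adaptors and Rac regulators, with 4 lower. The 3 genes of all lists with the largest values there were Cd300lf, a phosphatidylserine receptor of myeloid cells (log2 5.89), Vav1, a Rac exchange factor (5.80), and the kinase Syk (5.66). Vav1 stood at 211 ± 26.98 normalized CPM in microglia and at means of 1.13 to 7.92 in the other types, while Cd300lf reached no more than 1.97 ± 1.21. The proteases that shed TAM receptors and the downstream targets were higher in microglia for 7 of 8 and lower for none. In astrocytes, 11 of 17 other receptors were lower and 1 higher. Astrocytes had 9 of 13 genes of the Lrp1 list higher and 2 lower. The 3 largest astrocyte values were those of A2m (5.21) and Lrp8 (2.38), a protease inhibitor that Lrp1 clears and an apolipoprotein receptor, and of Vav3 (2.09), a Rac exchange factor, and A2m stood at only 6.55 ± 2.82 there.

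OPCs had 10 of 13 genes of the Lrp1 list higher and none lower, beside Lrp1 itself, against 29.8% and 14.9% of all genes. Their largest values were those of Megf11 (3.49), the relative of Megf10, at 182 ± 33.4 normalized CPM, of Tub (3.29), a phosphatidylserine bridging protein that Mertk recognizes, at 122 ± 18.7, and of Xkr4 (2.94), a member of the Xkr scramblase family. OPCs thus had Megf11 above Megf10 also per kilobase, 14.3 against 8.16. In oligodendrocytes the largest values were those of Edil3 (3.62), an integrin-binding relative of Mfge8, at 228 ± 36.5, of Xkr4 (2.34) and of Vldlr (2.31), a relative of Lrp1. Per kilobase Edil3 stood at 15.4 in oligodendrocytes, against 7.23 for Mfge8. The ligand and vitamin K list had 4 higher and 4 lower of 9 in microglia and 3 and 3 in astrocytes. It had 5 and 2 in OPCs and 3 and 5 in oligodendrocytes. The list of phosphatidylserine exposure and inhibitory signals had 4 and 4 of 9 in microglia and 3 and 2 in astrocytes. In OPCs it had 3 and 4 and in oligodendrocytes 4 and 3. In microglia and astrocytes the counts of both lists were near the shares of all genes.

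**Figure D3:**
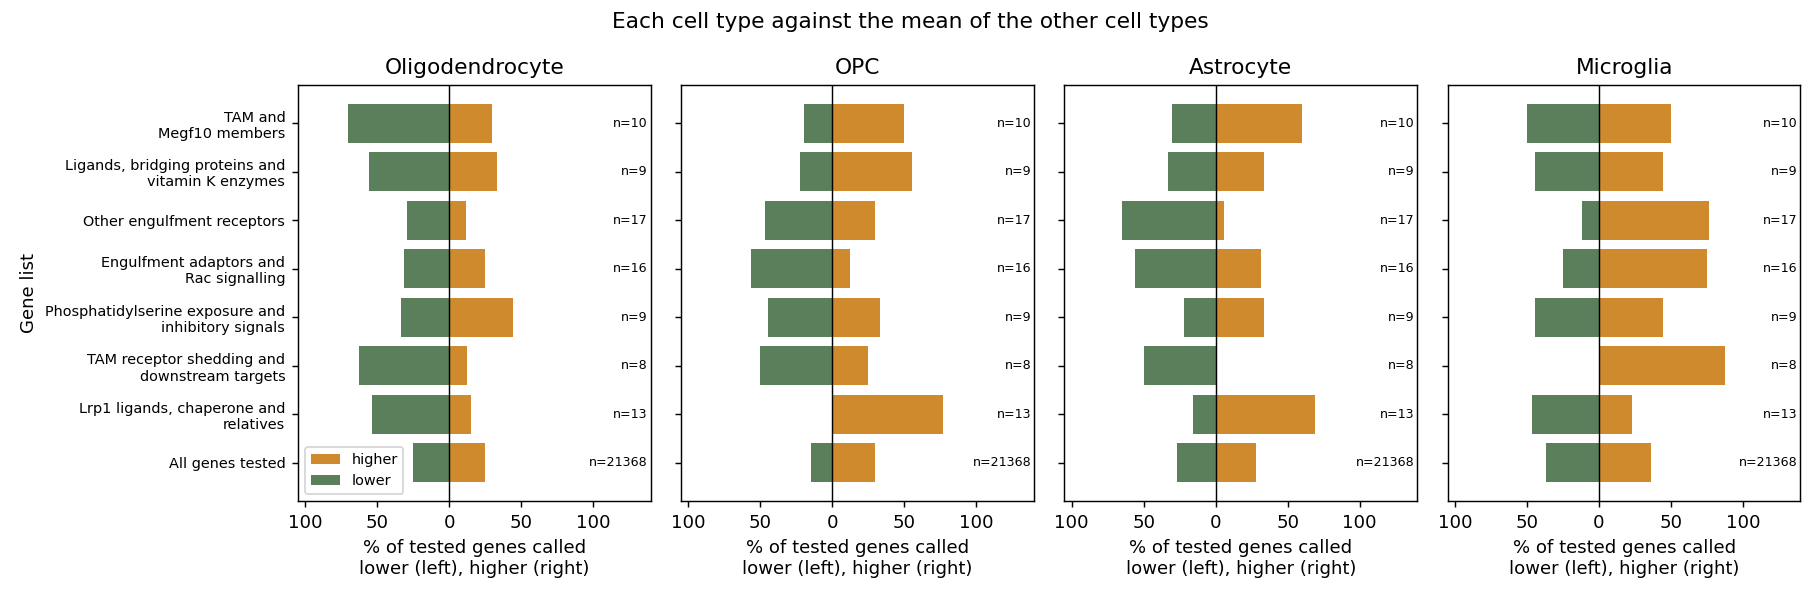
Share of the tested genes of each list called higher (orange, to the right) or lower (green, to the left) in a cell type than in the mean of the other cell types, with the number tested at the right of each bar and all genes in the lowest bar. The other engulfment receptors were called higher in 13 of 17 cases in microglia and lower in 11 of 17 in astrocytes.

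For each gene, the genes with the most similar profile were those with the highest Pearson correlation of log2 CPM over the 43 libraries, among 8790 genes with a mean of at least 10 CPM. These libraries share 4 cell types, so the values mainly describe the order of the types. Megf10 was closest to Kcnj10 (r = 0.987), Fam171b and Hepacam, of which Kcnj10 encodes the glial potassium channel Kir4.1 and Hepacam the antigen of the astrocyte dishes. Mfge8 was closest to Tspan7 (0.990), Prdx6 and Slc7a10, and Gulp1 to the mural cell marker Pdgfrb (0.964), Scara3 and F3. Tyro3 was closest to Tmeff2 (0.984), Ptprd and Myrf, the last a regulator of myelin genes. Mertk was closest to Notch2 (0.960), Tifa and Gem, Axl to Slc7a11 (0.937), Id3 and Ttyh3, Gas6 to Itpkb (0.910), Erap1 and Tor1aip1, and Pros1 to H2-K1 (0.945), Zfp516 and Srsf3. Elmo1 was closest to Fscn1 (0.971), Rasgef1b and Wipf1. Lrp1 had the lowest leading value, 0.892 with Usp24, followed by Chic2 and Midn.

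The study asked whether glia depend on lymphocytes, and no member was called between Rag2-/- and control mice in any cell type. Each cell type was fitted alone with edgeR, with genotype and sex as terms. The tests covered 9 of the 10 genes in oligodendrocytes, where Gulp1 had too few counts for the filter, all 10 in OPCs and in astrocytes, and 8 in microglia, where Megf10 and Gulp1 had too few. In these fits calls over all genes were also rare, at 0.0% of 13802 genes for oligodendrocytes, 0.00667% for microglia, 0.00679% for astrocytes and 0.00592% for OPCs. At an unadjusted p under 0.05 the edgeR tests held 3 of the 10 genes, all in OPCs, and 467, 436, 423 and 679 of all genes in the same order of cell types. DESeq2 also called none of the 10, and its calls over all genes were 203 in oligodendrocytes, 5 in OPCs, 3 in microglia and 1 in astrocytes. The joint fit of all 43 libraries called 848 genes by genotype in oligodendrocytes, again with no member among them. The values of Rag2-/- and control libraries overlapped for each of the 10 genes in each of the 4 cell types.

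In astrocytes the log2 differences, Rag2-/- over control, ran from -0.08 for Gas6 to 0.42 for Elmo1, and in microglia from -0.18 for Mfge8 to 0.40 for Tyro3. Astrocyte Mertk was 307, 392 and 600 normalized CPM (lowest, median and highest) in 6 controls and 351, 435 and 501 in 6 Rag2-/- mice (log2 0.03, 95% interval -0.26 to 0.32). Astrocyte Megf10 was 177, 213 and 227 in controls and 152, 211 and 261 in Rag2-/- mice, with an interval of -0.26 to 0.25, and astrocyte Mfge8 was 915, 1047 and 1224 against 925, 1007 and 1469, with an interval of -0.24 to 0.16. The groups overlapped in these 3 genes, and the intervals stayed within ± 0.32 on the log2 scale. The same held in microglia for Mertk, at 242, 352 and 421 in controls and 283, 342 and 401 in Rag2-/- mice (interval -0.31 to 0.20). Microglial Pros1 was 93.2, 109 and 126 in controls and 84.0, 96.9 and 123 in Rag2-/- mice, lower in the Rag2-/- mouse of 5 of 6 pairs, with an interval of -0.35 to 0.10. Microglial Megf10 was 0.150 to 1.84 in controls and 0.321 to 4.91 in Rag2-/- mice, and Gulp1 0 to 0.636 and 0 to 0.819.

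**Figure D4:**
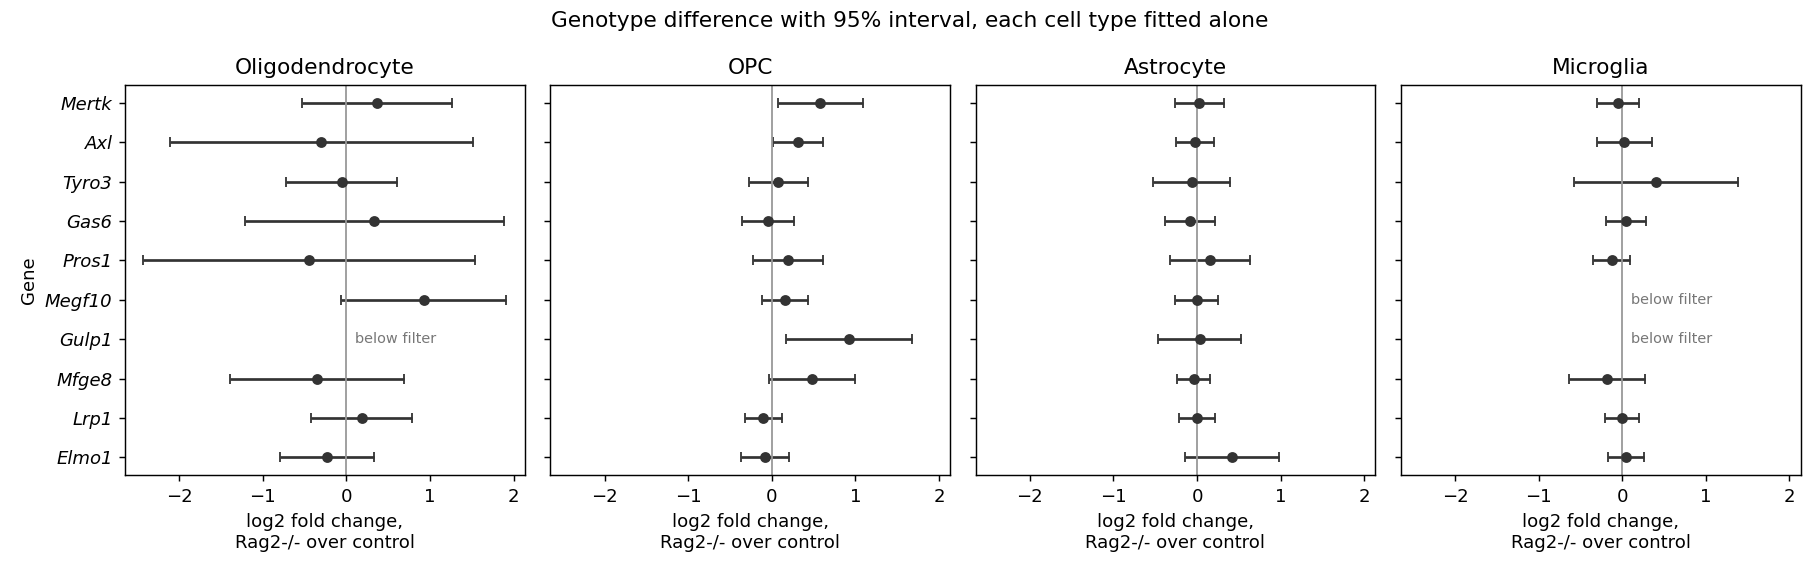
Log2 fold change, Rag2-/- over control, of each gene (rows) with its 95% interval in each cell type (panels), from the fit of that cell type alone, with genes of too few counts left blank. The OPC intervals of Mertk (0.07 to 1.09), Axl (0.02 to 0.61) and Gulp1 (0.17 to 1.68) lie above 0. The widest interval is that of Pros1 in oligodendrocytes (-2.43 to 1.54).

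OPCs held the 3 genes with an unadjusted p under 0.05, all higher in Rag2-/- mice and none past the adjustment over 16882 genes (adjusted p = 0.9998 for each). The median log2 difference of the 10 genes was 0.18 there, against -0.01 over all genes. Gulp1 was 2.45, 2.14, 2.60, 0.991, 5.21 and 3.02 normalized CPM in the controls of pairs 1 to 6 and 5.33, 5.68, 4.36, 4.88 and 6.25 in the Rag2-/- mice of pairs 1, 2, 3, 4 and 6. It was higher in the Rag2-/- mouse in 5 of 5 pairs, and the control of pair 5, which has no partner, lay among the Rag2-/- values (log2 0.93 ± 0.36, unadjusted p = 0.0197). The difference was 0.77 to 1.18 with any 1 library left out. Axl was 46.3, 37.8, 32.2, 37.6, 29.6 and 42.2 in the controls and 55.6, 41.2, 46.9, 42.5 and 48.6 in the Rag2-/- mice, again higher in 5 of 5 pairs (0.31 ± 0.14, unadjusted p = 0.0406). Such a count was not limited to genes with a small p, since Megf10 in OPCs was also higher in 5 of 5 pairs (0.16 ± 0.13, unadjusted p = 0.232) and Lrp1 in oligodendrocytes in 4 of 4 (0.18 ± 0.28, unadjusted p = 0.526).

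Mertk in OPCs was 53.0, 60.1, 77.6, 50.8, 52.7 and 82.7 in controls and 181, 67.7, 62.5, 70.2 and 88.8 in Rag2-/- mice. Its log2 difference of 0.58 ± 0.24 (unadjusted p = 0.0279) rested on the library of pair 1 at 181, and without it the difference was 0.18. Without the filter on low counts Mertk was called in OPCs (log2 0.59, adjusted p = 0.0234), in a fit that called 90 genes in place of 1, and that library was included there. Mfge8 was 126, 199, 130, 102, 82.3 and 179 in controls and 303, 216, 127, 154 and 163 in Rag2-/- mice (0.48 ± 0.24, unadjusted p = 0.0645), and 0.20 without the library of pair 1. Of these 4 genes, Gulp1, Axl and Mfge8 were highest in astrocytes, and Mertk in astrocytes and microglia, which were not called apart. The OPC libraries differed in astrocyte RNA. The 6 astrocyte markers summed to 502, 803 and 988 (lowest, median and highest) in the 6 control libraries and to 708, 1092 and 1730 in the 5 Rag2-/- libraries, of which 1730 was pair 1. No astrocyte marker was at 0 in either group. The microglial panel was 133 to 675 in control and 135 to 694 in Rag2-/- libraries, of which 135 was pair 1. The endothelial panel was 17.9 to 40.7 in control and 21.9 to 74.3 in Rag2-/- libraries, and the panel of mural cells and fibroblasts 76.7 to 219 and 87.8 to 303. The part of these cells in the OPC values was not tested.

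**Figure D5:**
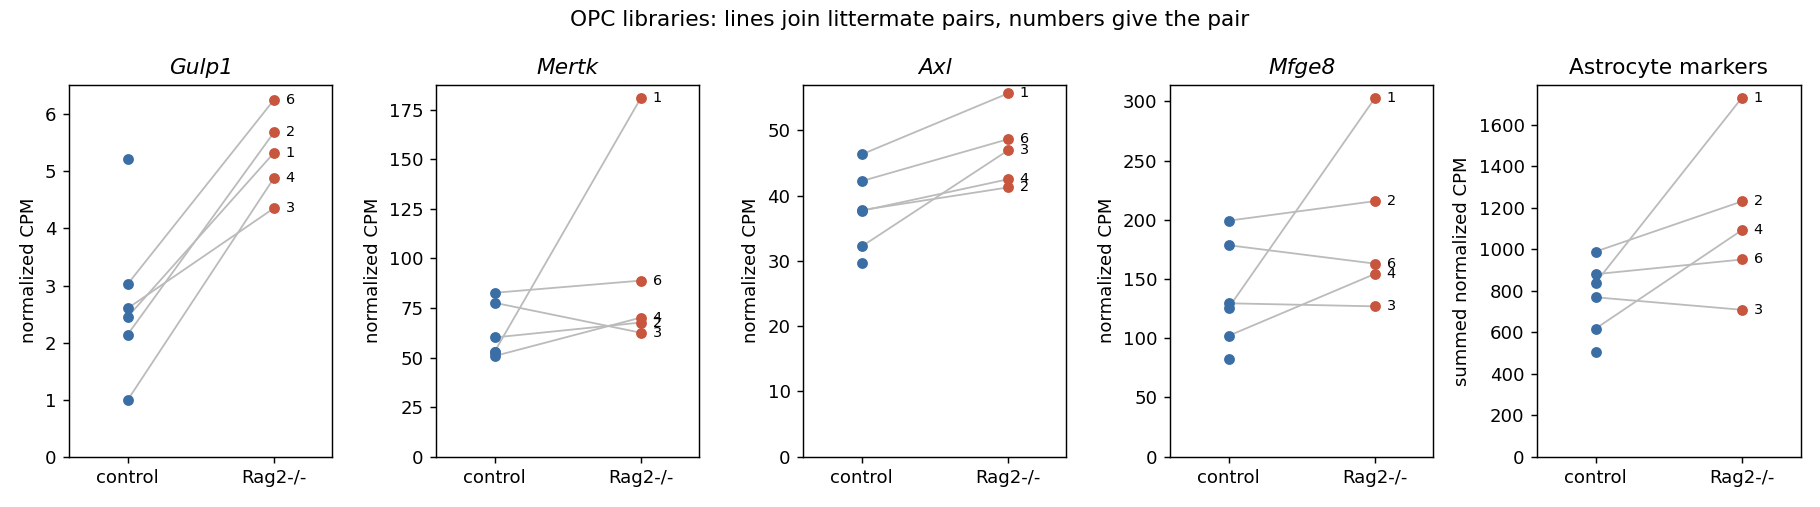
Normalized CPM of Gulp1, Mertk, Axl and Mfge8 and the summed normalized CPM of 6 astrocyte markers (vertical axes, linear from 0) in OPC libraries by genotype, with lines joining the mice of a littermate pair and numbers naming the pair. Pair 1 has the highest Rag2-/- value of Mertk (181), Axl (55.6), Mfge8 (303) and the astrocyte markers (1730).

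In oligodendrocytes, with 4 libraries a group, intervals were wide. Megf10 was 141, 135, 40.2 and 32.8 in the controls of pairs 1, 3, 5 and 6 and 124, 162, 152 and 142 in their Rag2-/- littermates. The difference came from 2 low control libraries (log2 0.93 ± 0.45, 95% interval -0.06 to 1.91, unadjusted p = 0.0641, adjusted p = 0.998), and it was 0.46 without the control of pair 5. The controls of pairs 5 and 6 also had neuronal panels of 2148 and 2901, against 953 and 578 in the controls of pairs 1 and 3, and mural cell and fibroblast panels of 93.8 and 101 against 12.8 and 13.4. The Rag2-/- libraries of pairs 5 and 6, with Megf10 at 152 and 142, had neuronal panels of 2121 and 2164 and mural cell and fibroblast panels of 35.7 and 42.5, against 13.6 and 9.07 in those of pairs 1 and 3. The part of these cells in Megf10 was not tested. Mertk was 22.5, 41.2, 33.6 and 38.3 in controls and 79.6, 53.6, 27.99 and 16.2 in Rag2-/- mice, higher in 2 pairs and lower in 2. Tyro3, the oligodendrocyte TAM receptor, was 96.8, 95.5, 68.6 and 54.1 in controls and 79.5, 69.0, 100.3 and 54.0 in Rag2-/- mice (log2 -0.06, interval -0.72 to 0.61). Gulp1 had 7, 0, 16 and 2 counts in controls and 0, 0, 0 and 12 in Rag2-/- libraries.

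None of the 10 genes was called for a difference of the genotype effect between cell types, tested as an interaction in the joint fit of all 43 libraries, where 0.248% of all genes were called. The smallest adjusted p was that of Gulp1, 0.561 (unadjusted p = 0.0957), and DESeq2 called none of the 10 either, in a fit that called 444 genes in all against 53 with edgeR and 5 with the mouse as a block. Of the 75 further genes, edgeR tested 70 by genotype in microglia, 66 in OPCs, 61 in oligodendrocytes and 59 in astrocytes, and none of these was called. Of 72 tested in the interaction, Xkr8, a scramblase that exposes phosphatidylserine when cut by caspases, was called (adjusted p = 0.0460). Xkr8 was singled out after its values were seen. In oligodendrocytes Xkr8 was 0.613 to 12.8 normalized CPM in controls and 0.383 to 0.858 in Rag2-/- mice, whereas in microglia it was 3.66 to 10.8 and 3.58 to 11.8.

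Sex called none of the 10 genes in any cell type, at shares of all genes called of 0.0467% in microglia, 0.0407% in astrocytes, 0.0296% in OPCs and 0.0362% in oligodendrocytes. Elmo1 in astrocytes came nearest. It was 24.5, 19.5, 13.1, 16.3 and 28.04 in 5 female mice and 41.2, 60.3, 42.1, 55.4, 33.2, 29.3 and 12.97 in 7 male mice, and the male library at 12.97, the control of pair 6, was the lowest of all 12 (log2 -0.99 ± 0.28, female over male, unadjusted p = 0.0021, adjusted p = 0.633). It was called without the filter on low counts (-0.98, adjusted p = 8.1e-05), in a fit that keeps that library. With the littermate pair as a block only pair 6 holds both sexes, and the difference turned to 1.02 (adjusted p = 0.574), so sex and litter cannot be told apart for Elmo1 in these mice. The microglial panel, whose cells have the highest Elmo1, was 81.4 to 97.1 in the female and 61.1 to 242 in the male astrocyte libraries, and its part was not tested. Mfge8 in astrocytes was 1011 to 1469 in females and 915 to 1053 in males (log2 0.32 ± 0.10, unadjusted p = 0.0032, adjusted p = 0.715), and that value was -0.01 with the pair as a block.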

How the data were processed

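RNA from 43 libraries of immunopanned glia was sequenced in paired reads. The deposited values were counts per gene, which the authors made by aligning reads to GRCm39 with STAR 2.7.8a and counting with HTSeq, without normalization. The counting mode and strand setting are not given in the sources used here, so overlapping and antisense genes are uncertain. The 5 summary lines of each file, 33.5% to 52.0% of its total, were left out. Of 55416 identifiers, 54749 were named by GENCODE M39.

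Counts were analysed in R 4.3.3 with edgeR 4.0.16 (filterByExpr at its minimum count, 10, and minimum total, 15, TMM factors, quasi-likelihood test, Benjamini-Hochberg adjustment over all genes tested, threshold 0.05). Genotype and sex were tested in each cell type alone. Cell types and the interaction were tested in a joint fit of 8 groups and sex, in which libraries of different cell types from a mouse were treated as separate. DESeq2 1.42.0 and limma 3.58.1 were used beside it, with Python 3.11.15, numpy 2.4.6, pandas 2.3.3 and matplotlib 3.10.9 for levels and plots. The fits were tested on simulated data first. Alternatives covered the scaling, the filter, the tool, the sex term, the controls, the mitochondrial genes, the replicate block and each library or mouse left out.

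The 10 members, the gene lists and the markers were chosen with earlier results of these data known. Named beside the members were list genes called by genotype, the 3 list genes highest in each cell type and the 3 genes closest to each member. Pair numbers come from the labels and mark littermates. The deviations of littermates from their group means correlated at a mean r of 0.0546 to 0.0787 within cell types, against -0.0260 to -0.0110 for other pairs of mice. Deviations sum to 0 in a group, so the second range largely follows from the first and is no separate comparison. No 2 libraries of a group agreed within sampling noise (smallest chi-square per gene 5.53). Each mouse was 1 replicate in a cell type. Each library gave at least 6499417 counts on genes. Intervals are for fitted differences between groups, with the spread between libraries as their error, and do not span single libraries.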

Additional observations from a re-analysis of the deposited data

Results flagged for a closer look

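Each gene was examined in each of the 8 groups of libraries for a library that stood far from the others of its group by Dixon's test at the 95% level. This gave 80 groups, of which 10 held such a library, and chance alone marks about 1 in 20. All 10 libraries were the highest of their group. Mertk in the OPC library of the Rag2-/- mouse of pair 1 was 181 normalized CPM, and the nearest of the other 4 libraries was 88.8. Tyro3 in Rag2-/- OPCs was 34.7 in pair 6, with 23.4 next. Gas6 in Rag2-/- OPCs was 42.5 in pair 3, with 32.7 next. Pros1 in Rag2-/- oligodendrocytes was 14.2 in pair 5, and the other 3 lay between 6.26 and 6.65. Gulp1 in control astrocytes was 21.2 in pair 6, with 12.8 next.

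The other 5 rested on few reads. In microglia Tyro3 was 4.29 in the control of pair 1, with 1.81 next, and 3.53 in the Rag2-/- mouse of pair 4, with 2.01 next. Microglial Megf10 was 4.91 in the Rag2-/- mouse of pair 6, with 1.73 next, and microglial Gulp1 was 0.636 in the control of pair 1, with 0.102 next. Gulp1 in Rag2-/- oligodendrocytes was 1.68 in pair 6, while the other 3 libraries had no count. What set these libraries apart was not tested.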

How the results depend on the processing

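The number of members called was counted again in 270 pairings of a result and a setting. In 268 of them it stayed at 0 where the main count was 0, or otherwise within 1.5 times the main count. The exceptions were both without the filter on low counts, which called 1 member by genotype in OPCs (Mertk) and 1 by sex in astrocytes (Elmo1). Of 694 refitted genotype differences, 79 changed sign, none of them called, and of 570 differences between neighbouring cell types 17 changed sign, 18 lost and 3 gained a call. The number of neighbour comparisons called was 25 with the mouse as a block, 23 without TMM factors and 21 in controls alone, against 26. Calls of all genes moved more. By genotype they went from 0 to 203 with DESeq2, 848 in the joint fit and 14 without the filter in oligodendrocytes, from 1 to 5 and 90 with DESeq2 and without the filter in OPCs, from 1 to 30 without the filter in astrocytes, and from 1 to 3, 3 and 9 in microglia. The interaction went from 53 to 444 with DESeq2, 1011 without the filter, 28 without TMM factors and 5 with the mouse as a block. The causes were not tested. Gulp1 outside astrocytes and OPCs, and Megf10 and Tyro3 in microglia, rested on few reads, and oligodendrocytes had 4 libraries a group.

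With the littermate pair as a replicate block no member was called by genotype or sex. Differences that changed sign with this pairing were, by genotype, in astrocytes Gas6 0.0089, Lrp1 0.0031, Mfge8 0.010 and Pros1 -0.037, in microglia Mertk 0.014, in oligodendrocytes Axl 0.80, Gas6 -0.48 and Mfge8 0.17 and in OPCs Gas6 0.0858, and by sex, in astrocytes Elmo1 1.02 and Mfge8 -0.013 and in microglia Axl -0.047. With the mouse as a block Gulp1 was not called between oligodendrocytes and microglia (log2 1.26, adjusted p = 0.112).

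Other genotype differences that changed sign were all small or in oligodendrocytes. Without TMM factors they were Gulp1 -0.099 and Mertk -0.0902 in astrocytes. In the joint fit they were Gulp1 -0.12, Lrp1 0.0054 and Mfge8 0.011 in astrocytes and Lrp1 0.016 and Mertk 2.1e-05 in microglia. Lrp1 in astrocytes was 0.0022 with DESeq2, 0.0014 with DESeq2 size factors and 0.0013 without the filter, and Lrp1 in microglia was 0.0060 without the filter and 0.0065 without the sex term, where Mfge8 in astrocytes was 0.019. With Rag2 +/- controls only they were Megf10 0.026 in astrocytes, Mertk 0.013 in microglia, and Axl 0.80 and Mfge8 0.17 in oligodendrocytes. With 1 library left out, the ranges were, in astrocytes, -0.10 to 0.033 for Axl, -0.0854 to 0.20 for Gulp1, -0.0492 to 0.0562 for Lrp1, -0.0737 to 0.0629 for Megf10, -0.033 to 0.14 for Mertk, -0.10 to 0.25 for Pros1 and -0.18 to 0.037 for Tyro3. In microglia they were -0.15 to 0.10 for Axl, -0.014 to 0.0889 for Elmo1, -0.0034 to 0.11 for Gas6, -0.0796 to 0.0474 for Lrp1 and -0.12 to 0.017 for Mertk. In oligodendrocytes they were -0.60 to 0.80 for Axl, -0.17 to 0.86 for Gas6, -0.57 to 0.17 for Mfge8, -0.94 to 0.15 for Pros1 and -0.23 to 0.045 for Tyro3, and in OPCs -0.18 to 0.0059 for Elmo1, -0.15 to 0.032 for Gas6 and -0.029 to 0.18 for Tyro3.

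Between cell types, Tyro3 in OPCs over astrocytes was -0.0594 with DESeq2 and -0.0593 with its size factors, -0.018 without the filter, -0.10 in controls alone, -0.0541 without mitochondrially encoded genes and -0.12 to 0.0877 with 1 mouse left out. Without TMM factors, Gas6 in astrocytes over OPCs was -0.21, Elmo1 in oligodendrocytes over OPCs -0.026 and Megf10 in the same pair -0.54. That setting moved the median of all genes by 1.01 for OPCs over oligodendrocytes and by -0.39 for astrocytes over OPCs, close to the shifts of these members. DESeq2 size factors moved it by 0.11 and leaving out mitochondrially encoded genes by 0.10 for astrocytes over OPCs. Gulp1 in oligodendrocytes over microglia ran from -0.69 to 2.20 with 1 mouse left out.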
